A study of Mus musculus with 24 samples.

Results

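Transcription factors that divide the developing brain into regions and give neurons their identity were followed in 2 sensory relay nuclei of the newborn mouse thalamus, the dorsal lateral geniculate nucleus (dLGN, visual) and the ventrobasal nucleus (VB, somatosensory). A set of 39 such genes was chosen by symbol, and 38 of them were measured among the 18194 genes of the array. Etv1 was not analysed here. Where a gene had several probe sets, the one with the highest mean signal over the 24 arrays stood for it. The 38 genes had 126 probe sets in all, 9 genes having 1 and 29 having several.

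The set holds homeodomain proteins that mark territories along the neural tube (Otx1, Otx2, Irx1, Irx2, Irx3, Irx5, Six3, Barhl2), POU factors of neuronal precursors and sensory neurons (Pou3f1, Pou3f2, Pou3f3, Pou4f1), and the TALE homeodomain cofactors Meis1, Meis2 and Pbx3. It also holds zinc finger proteins (Zic1, Zic2, Zic4, Zfhx3, Zfhx4, Bcl11a, Bcl11b, Tshz1, Tshz2), CUT-domain and Prospero homeodomain proteins (Cux1, Cux2, Satb1, Prox1), and HMG-box proteins of the Sox family (Sox1, Sox2, Sox4, Sox5, Sox6, Sox11). Foxp1, Nfix, Ebf1 and Ebf3 complete it. Proteins of this kind bind DNA in combinations, and the combination present in a progenitor or a young neuron helps to set which nucleus it joins and which targets its axon reaches. In the thalamus, glutamatergic relay neurons arise from the caudal progenitor domain, whereas most GABAergic neurons arise from other sources, among them the prethalamus and the midbrain.

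Tissue came from C57BL/6 wild-type mice on the day of birth (P0) or at postnatal day 4 (P4). Embryos of the embBE groups had lost both eyes in utero (embryonic bilateral enucleation), and controls kept theirs. VB was sampled with 3 control and 3 embBE arrays at each age, dLGN with 2 control and 4 embBE arrays at P0 and with 3 of each at P4. Each array held the microdissected nucleus of pooled pups that shared a litter and a condition, and its RNA was amplified before hybridization. Arrays are named here by the pair of numbers in their labels, whose meaning is not stated. Since nothing in the labels ties an array to an independent litter, p-values measure the spread between these arrays, which may be technical. In pooled tissue, fewer cells of a type and less RNA per cell cannot be told apart.

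All signals are log2 values after RMA, so a difference of 1 is a 2-fold difference. RMA is a normalization meant to bring arrays to a common distribution. The SD over all probe sets still ran from 2.16 to 2.42 between arrays. Of the 10 relay thalamus markers listed, some were high on every array and others low. Slc17a6, the vesicular glutamate transporter of relay neurons, lay between 11.1 and 13.3, and Tcf7l2, a factor of the caudal diencephalon, between 11.8 and 12.8. Rorb, a nuclear receptor gene, lay between 8.20 and 9.46 in VB and between 6.01 and 7.79 in dLGN, so the nuclei did not overlap. Lhx2, a LIM homeodomain factor, lay between 3.26 and 5.09 in VB and between 5.02 and 6.99 in dLGN, and Gbx2, a homeobox factor of young thalamic neurons, between 6.21 and 8.40 in VB, 5.19 and 9.05 in dLGN at P0 and 4.57 and 6.67 in dLGN at P4. The mean over the 10 genes lay between 9.65 and 10.62 on every array. Sox14, a marker of some thalamic interneurons, stayed between 6.09 and 6.78 on all arrays. The nuclei differed in a sign of transcript truncation, in which RNA quality and amplification cannot be told apart. The gap between the 3′ and 5′ actin probe sets, which widens as transcripts are truncated, was 3.07 to 4.27 on 11 of the 12 dLGN arrays (2.21 on P4 control 24_2) and 1.95 to 2.98 on 10 of the 12 VB arrays (4.29 on P0 control 35_1, 3.14 on P4 control 36_3).

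Zic4 separated the nuclei by the widest margin of the set. Zic proteins are zinc finger factors of the dorsal neural tube and of the diencephalon. In VB, Zic4 read 8.43, 9.42 and 8.31 on the P0 control arrays (35_1, 35_2, 39_5), 9.04, 8.95 and 8.03 on the P0 embBE arrays (35_3, 39_3, 39_4), 8.14, 7.99 and 8.14 on the P4 control arrays (24_2, 36_3, 40_1) and 8.66, 7.52 and 8.51 on the P4 embBE arrays (24_4, 36_2, 40_3). In dLGN it read 10.77 and 10.52 on the P0 control arrays (35_1, 39_5), 10.08, 10.88, 10.12 and 10.68 on the P0 embBE arrays (35_3, 39_2, 39_3, 39_4), 10.48, 10.17 and 9.77 at P4 in controls and 10.54, 9.71 and 10.18 at P4 in embBE, in the order of the VB arrays. All 12 dLGN arrays lay above all 12 VB arrays. VB was lower by 1.92 ± 0.38 (SE) on the log2 scale in P0 controls, a 3.77-fold difference (limma, Benjamini-Hochberg adjusted p = 0.0087). The difference was -2.05 ± 0.34 in P4 controls (adjusted p = 0.000897), -1.77 ± 0.32 in P0 embBE (adjusted p = 0.00189) and -1.92 ± 0.34 in P4 embBE (adjusted p = 0.00139). The dimmer Zic4 probe set moved the same way and was also called in the 4 comparisons, with differences of -0.82 to -0.59. With the t-test of the study's methods in place of limma, Zic4 had no adjusted p under 0.05 in any of the 4.

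Zic1, the chromosomal neighbour of Zic4, was also lower in VB, by less. Its VB arrays read 13.51, 13.28 and 13.03 (P0 control), 13.39, 13.31 and 13.16 (P0 embBE), 12.87, 13.31 and 13.10 (P4 control) and 13.19, 12.69 and 13.20 (P4 embBE). The dLGN arrays read 13.73 and 13.82, 13.83, 13.90, 13.91 and 13.73, 13.40, 13.72 and 13.66 and 13.55, 13.74 and 13.74 in the same order of groups. Within each age and treatment the nuclei did not overlap. The VB minus dLGN difference was -0.56 ± 0.14 in P0 embBE (adjusted p = 0.0193) and -0.65 ± 0.15 in P4 embBE (adjusted p = 0.0118). In controls it was -0.50 ± 0.17 at P0 (adjusted p = 0.19) and -0.50 ± 0.15 at P4 (adjusted p = 0.0774), which did not pass.

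Zic2, a relative on another chromosome, went the other way. In VB it read 7.17, 7.06 and 6.93 on P0 control, 7.16, 7.07 and 6.91 on P0 embBE, 7.25, 7.31 and 6.84 on P4 control and 6.94, 7.08 and 6.34 on P4 embBE arrays. In dLGN it read 6.38 and 6.52, 6.76, 7.06, 6.98 and 6.62, 6.13, 6.34 and 6.77 and 6.45, 6.47 and 6.73. Control VB arrays were the higher at both ages, and only the P4 difference of 0.72 ± 0.19 passed (adjusted p = 0.0335; P0 0.60 ± 0.21, adjusted p = 0.221). In embBE mice the nuclei overlapped at both ages.

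Zic1 and Zic4 lie side by side on chromosome 9 on opposite strands. Their promoters are shown because these genes shared a direction between the nuclei. Each sequence is the 250 bases before the start that RefSeq gives (GRCm38.p6), 5′ to 3′ on the strand of the gene, at chr9:91365769-91366018 (minus strand) for Zic1 and chr9:91368722-91368971 (plus strand) for Zic4. Capitals mark matches on either strand to a GC box, searched as the letters GGGCGG. The CCAAT box, searched as its name spells it, and the TATA box, searched as the letters TATAAA, are marked in the same way. No matches overlapped in the sequences shown.
Zic1: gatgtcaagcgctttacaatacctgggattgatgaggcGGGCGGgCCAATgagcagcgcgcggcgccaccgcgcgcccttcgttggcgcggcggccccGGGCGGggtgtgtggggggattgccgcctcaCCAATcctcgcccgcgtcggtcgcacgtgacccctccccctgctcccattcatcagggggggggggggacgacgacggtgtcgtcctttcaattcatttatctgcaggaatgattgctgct
Zic4: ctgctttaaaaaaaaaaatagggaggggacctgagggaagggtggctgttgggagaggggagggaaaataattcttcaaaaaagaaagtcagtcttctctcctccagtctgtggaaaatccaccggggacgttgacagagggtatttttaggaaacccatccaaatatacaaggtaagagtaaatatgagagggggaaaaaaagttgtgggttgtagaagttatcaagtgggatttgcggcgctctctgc
The Zic1 window held 2 GC boxes and 2 CCAAT boxes, 27 CG dinucleotides and 66.0% G or C. The Zic4 window held none of the 3 motifs, 4 CG dinucleotides and 44.4% G or C. Of 32851 promoter windows of that length, 32.7% held a GC box, 33.8% a CCAAT box and 12.4% a TATA box, with a median of 52.4% G or C and 6.0 CG dinucleotides. A match describes letters only.

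Sox2, an HMG-box factor of neural progenitors and glia that young thalamic neurons can also keep, was the other member in which all 12 dLGN arrays lay above all 12 VB arrays. Its dLGN arrays read 12.19 and 12.19 (P0 control), 12.11, 12.33, 12.37 and 12.23 (P0 embBE), 12.33, 12.14 and 12.11 (P4 control) and 12.24, 12.13 and 12.42 (P4 embBE). VB read 11.35, 11.80 and 11.08, 11.87, 11.91 and 11.66, 11.42, 11.52 and 11.77 and 11.85, 11.28 and 11.93. The difference passed in P0 controls, at -0.78 ± 0.19 (adjusted p = 0.0413), and in P4 embBE, at -0.58 ± 0.17 (adjusted p = 0.0431). It stood at -0.62 ± 0.17 in P4 controls (adjusted p = 0.0503) and -0.45 ± 0.16 in P0 embBE (adjusted p = 0.0813). Of all genes, 0.973% had no overlap between the 12 arrays of each nucleus, against 2 of the 38 members.

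**Figure D1:**
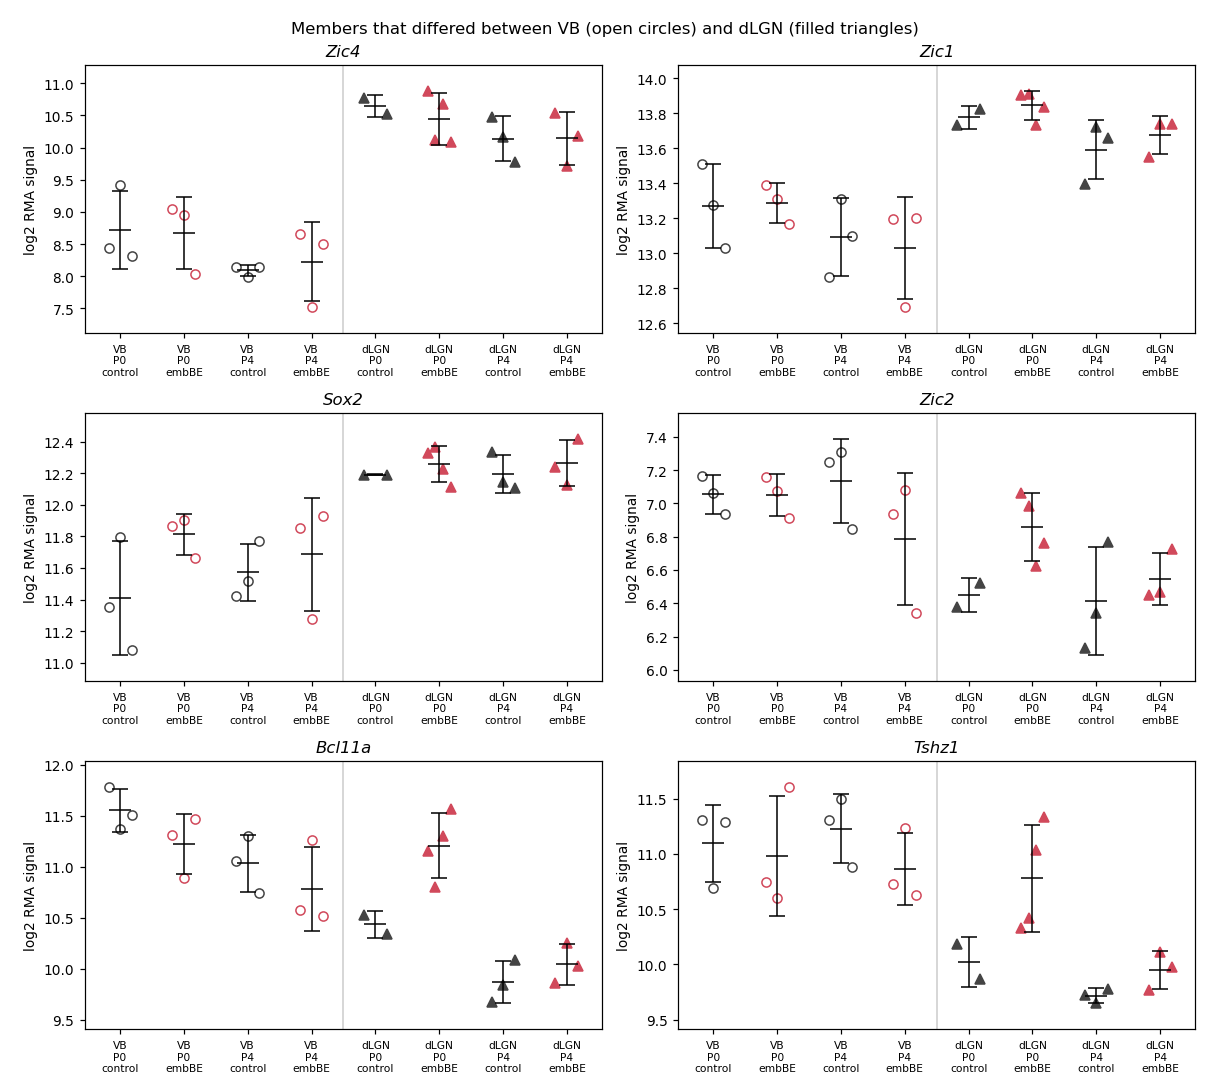
Log2 RMA signal (vertical axis) of 6 members on every array, in the 8 groups of nucleus, age and treatment (horizontal axis). Open circles are VB and filled triangles dLGN arrays, grey control and red embBE, with the group mean and SD in black. Zic4 and Sox2 show no overlap between the nuclei, Zic1 is lower and Zic2 higher in VB controls than in dLGN controls, and Bcl11a and Tshz1 are lower in dLGN than in VB in controls, with P0 embBE arrays of dLGN overlapping those of VB.

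Bcl11a and Tshz1 were higher in VB than in dLGN in controls. Bcl11a is a zinc finger repressor that shapes projection neuron identity and axon growth, and Tshz1 is a teashirt zinc finger protein known from forebrain interneurons. Control VB arrays read 11.78, 11.37 and 11.50 at P0 and 11.06, 11.30 and 10.74 at P4 for Bcl11a, and control dLGN arrays read 10.53 and 10.34 and 9.68, 9.84 and 10.09. All control VB arrays were above all control dLGN arrays. VB exceeded dLGN by 1.11 ± 0.24 in P0 controls (adjusted p = 0.0189) and by 1.17 ± 0.22 in P4 controls, 2.24-fold (adjusted p = 0.00285). Tshz1 in controls read 11.30, 10.69 and 11.29 in VB and 10.18 and 9.86 in dLGN at P0, and 11.30, 11.50 and 10.88 in VB and 9.72, 9.65 and 9.78 in dLGN at P4. Again the control arrays of the nuclei did not overlap. Its difference was 1.51 ± 0.27 at P4, 2.85-fold (adjusted p = 0.0021), and 1.07 ± 0.31 at P0, which missed the threshold (adjusted p = 0.1).

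In embBE mice the differences of Bcl11a and Tshz1 passed at P4 and not at P0. At P4 the VB embBE arrays read 10.57, 11.26 and 10.52 and the dLGN embBE arrays 9.85, 10.26 and 10.02 for Bcl11a, a difference of 0.74 ± 0.22 (adjusted p = 0.0413). Tshz1 read 10.73, 11.23 and 10.62 and 9.76, 10.11 and 9.97 there, a difference of 0.91 ± 0.27 (adjusted p = 0.0441). At P0 Bcl11a read 11.31, 10.89 and 11.47 in VB and 11.57, 11.15, 10.80 and 11.30 in dLGN, and the nuclei overlapped (0.02 ± 0.20, adjusted p = 0.966). Tshz1 overlapped too, at 10.74, 10.60 and 11.60 in VB and 11.34, 10.33, 10.42 and 11.04 in dLGN (0.20 ± 0.26, adjusted p = 0.594). Of the 6 other Bcl11a probe sets, 6 had the same sign in P0 controls and 4 in P4 controls, and the other Tshz1 probe set had the same sign in both. On the mean of its probe sets Bcl11a differed by 0.64 in P0 controls, 0.67 in P4 controls and 0.41 in P4 embBE mice, and the last of these was no longer called.

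Ebf1, Pbx3, Sox4 and Sox11 were lower in VB, with calls mostly in embBE mice. Ebf1 is a helix-loop-helix factor of differentiating neurons, Pbx3 a TALE homeodomain cofactor, and Sox4 and Sox11 are HMG-box activators that peak in newly born neurons. Ebf1 read 9.32, 8.02 and 9.15 in VB and 10.65, 10.53, 10.34 and 9.93 in dLGN of P0 embBE mice, a difference of -1.53 ± 0.38 (adjusted p = 0.0173). In P4 embBE mice it read 7.76, 8.41 and 7.85 and 9.22, 10.01 and 9.33, a difference of -1.51 ± 0.40 (adjusted p = 0.0258). The nuclei did not overlap at either age. The 4 other Ebf1 probe sets had the same sign but differed by less, -0.81 to -0.36 at P0 and -0.39 to -0.27 at P4, and on the mean of its probe sets Ebf1 differed by -0.73 and -0.57 and neither call was kept. In controls Ebf1 read 10.51, 9.33 and 9.02 in VB and 10.42 and 10.24 in dLGN at P0, and 8.31, 9.33 and 7.68 and 9.45, 9.78 and 9.86 at P4, and neither difference passed (adjusted p = 0.766 and 0.11). VB arrays 35_1 and 36_3, which had wide actin gaps, were the highest control VB arrays of their ages.

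Pbx3 read 8.54, 8.39 and 8.85 in VB and 10.72, 9.69, 9.87 and 9.66 in dLGN of P0 embBE mice, without overlap, a difference of -1.39 ± 0.36 (adjusted p = 0.0246). The other Pbx3 probe set differed by -0.08 in that comparison, and the mean of both kept the call at -0.73. Its P0 controls read 9.24, 8.51 and 9.47 in VB and 10.004 and 11.15 in dLGN, -1.51 ± 0.43 (adjusted p = 0.102), with dLGN array 39_5 the highest of all 24. At P4 the differences were -0.56 ± 0.39 in controls and -0.92 ± 0.39 in embBE mice, neither of which passed (adjusted p = 0.572 and 0.112).

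Sox11 differed in 3 of the 4 comparisons, by -0.73 ± 0.20 in P4 controls (adjusted p = 0.0402), -0.60 ± 0.18 in P0 embBE (adjusted p = 0.0496) and -1.004 ± 0.20 in P4 embBE (adjusted p = 0.00329). Its 5 other probe sets had the same sign in P4 controls, 2 of them had it in P0 embBE and 4 in P4 embBE, with the second brightest at -0.25, 0.09 and -0.16, and on the mean of its probe sets the values were -0.46, -0.15 and -0.46, with all 3 calls lost. Sox4 passed in P4 embBE alone, at -0.95 ± 0.18 (adjusted p = 0.00308), beside -0.66 ± 0.18 in P4 controls (adjusted p = 0.0546). Tshz2, a relative of Tshz1, passed in P0 embBE mice at -0.59 ± 0.15 (adjusted p = 0.0254), where it read 8.12, 8.15 and 8.62 in VB and 9.15, 8.58, 8.98 and 8.82 in dLGN. Its lowest dLGN array lay below its highest VB array. The values of Sox4 and Sox11 on each array are given with the comparison of ages.

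Counted over the set, 3 of the 38 members differed between nuclei in P0 controls (1 higher in VB, 2 lower), against 1.56% of the 18194 genes. In P4 controls 5 differed (3 higher, 2 lower), against 3.21% of genes. In P0 embBE mice 6 differed, all lower in VB, against 7.46% of genes, and in P4 embBE mice 8 differed (2 higher, 6 lower), against 8.44%. The median VB minus dLGN difference of the members was -0.13, -0.18, -0.33 and -0.31 in those comparisons, beside 0.03, -0.03, -0.06 and -0.09 over all genes. Controls and embBE mice, which share no array, gave the same sign for 33 of the 38 members at P4 (82.3% of all genes) and for 28 at P0 (51.2% of all genes). The change of the nuclear difference from P0 to P4 in controls passed for no member in limma (adjusted p of at least 0.722), against 0.022% of genes. For this change 3 members had an unadjusted limma p under 0.05, as did 1248 of the 18194 genes.

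**Figure D2:**
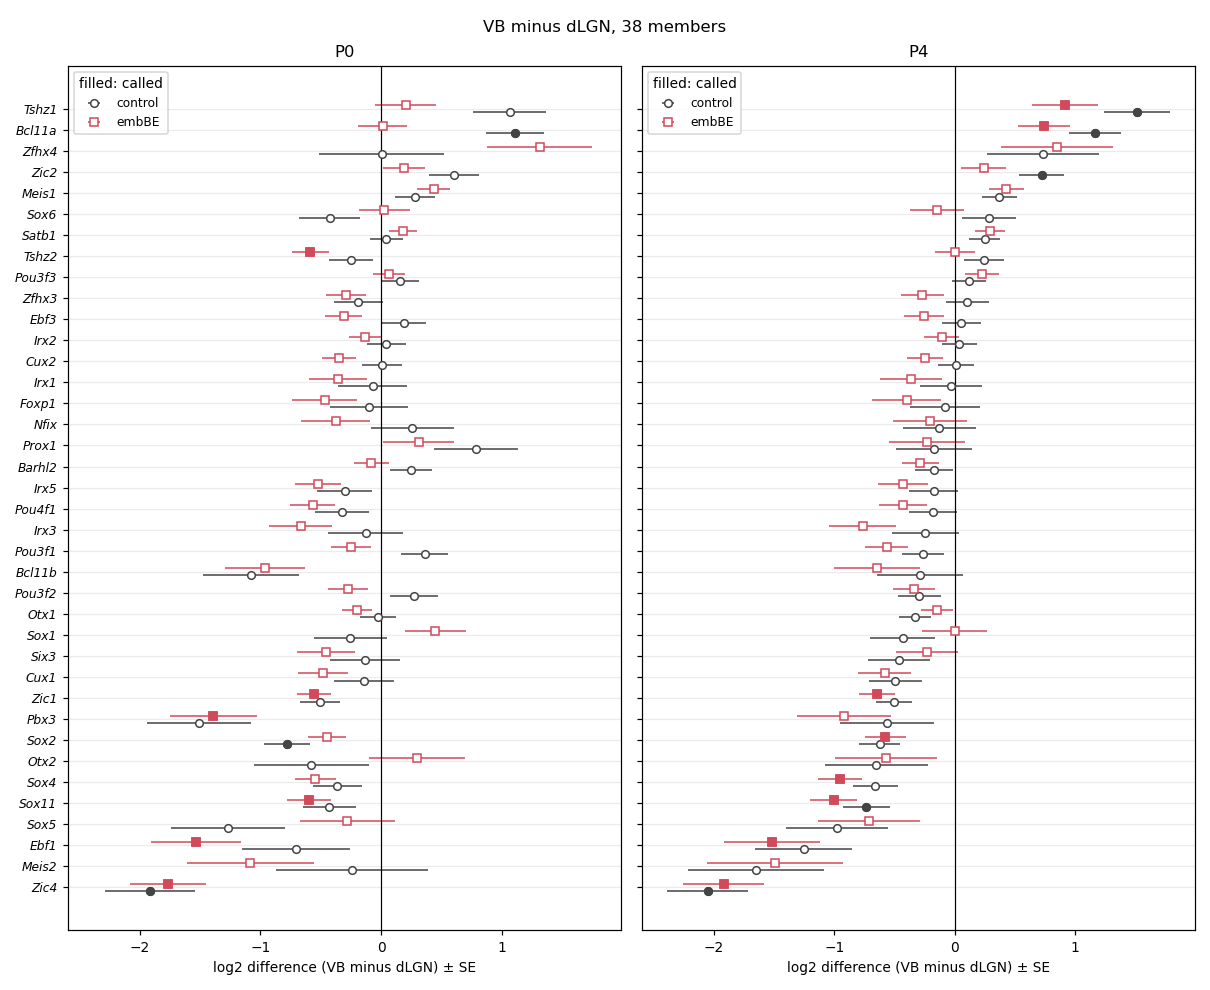
VB minus dLGN difference of the 38 members on the log2 scale (horizontal axis, with SE), at P0 (left) and P4 (right), for controls (grey circles) and embBE mice (red squares). Filled symbols are adjusted p under 0.05. Zic4 lies near -2 in all 4 comparisons, and Bcl11a and Tshz1 lie well above 0 except in P0 embBE mice.

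The actin gap moved with the nuclear comparison, and in embBE mice the gaps of the nuclei did not overlap at all. With the gap as a covariate, an alternative added after seeing the data, Zic4 stayed called in the 4 comparisons (-2.10, -2.34, -2.20 and -2.49 in the order above), and Bcl11a stayed called in the 3 in which it had been (1.21, 1.33 and 1.06). Tshz1 stayed called in P4 controls (1.60). The embBE calls of Ebf1, Pbx3, Sox4, Sox11, Tshz2, Zic1, Sox2 and Tshz1 were lost, as was Sox11 in P4 controls. Ebf1 then differed by -0.84 at P0 and -0.61 at P4, Pbx3 by -0.88, and Zic1 by -0.34 at P0 and -0.37 at P4. Sox11 differed by -0.31 at P0 and -0.62 at P4 in embBE mice and by -0.54 in P4 controls, and Sox4 by -0.65. The other lost calls kept values as large or larger, at -0.59 for Tshz2, -0.75 for Sox2 and 1.10 for Tshz1.

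Leaving out single arrays left the Zic4 calls of P4 controls and of both embBE comparisons in place, with differences between -2.23 and -1.45. Bcl11a and Tshz1 in P4 controls and Sox4 and Sox11 in P4 embBE mice also passed each time. In P0 controls, where dLGN has 2 arrays, Zic4 failed without dLGN 35_1 (-1.79), dLGN 39_5 (-2.04) or VB 39_5 (-1.71). Bcl11a and Sox2 failed there without any of those or VB 35_1, with Bcl11a at 0.999 to 1.21 and Sox2 at -0.78 to -0.61. In P4 controls Sox11 failed without dLGN 36_3 or 40_1 or VB 24_2 or 40_1 (-0.72 to -0.60), and Zic2 without dLGN 24_2 or 36_3 or VB 24_2 or 36_3 (0.58 to 0.69). In P0 embBE mice Ebf1 failed without VB 39_3 (-1.13). Pbx3 failed without dLGN 35_3 or any VB array (-1.52 to -1.15), Sox11 without any array except dLGN 39_4 (-0.64 to -0.56), Tshz2 without dLGN 39_3 or 35_3 or VB 35_3 or 39_3 (-0.56 to -0.50), and Zic1 without dLGN 39_3 or VB 39_3 or 39_4 (-0.57 to -0.49). In P4 embBE mice Tshz1 failed without any 1 array (0.73 to 1.03), Bcl11a and Sox2 without any except VB 40_3 (0.50 to 0.85 and -0.66 to -0.37), Ebf1 without dLGN 36_2 or 40_3 or VB 24_4 or 40_3 (-1.61 to -1.27), and Zic1 without dLGN 36_2 or 40_3 or VB 36_2 (-0.62 to -0.48).

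Sox4 and Sox11 fell between P0 and P4 in VB. Sox4 read 12.23, 12.04 and 11.94 in P0 controls and 11.03, 11.38 and 10.66 in P4 controls, 11.62, 12.12 and 12.23 in P0 embBE and 11.06, 10.81 and 11.14 in P4 embBE mice. Every P4 array of VB lay below every P0 array. The change was -1.05 ± 0.19 in controls, 2.07-fold (adjusted p = 0.0113), and -0.99 ± 0.19 in embBE mice (adjusted p = 0.0154). Sox11 there read 12.97, 12.72 and 12.23 in P0 controls and 11.42, 12.001 and 11.64 in P4 controls, 12.57, 12.64 and 12.72 in P0 embBE and 11.82, 11.19 and 11.82 in P4 embBE mice. Its P4 arrays also lay below all its P0 arrays, with changes of -0.95 ± 0.21 (adjusted p = 0.0289) and -1.03 ± 0.21 (adjusted p = 0.0213). The 5 other Sox11 probe sets had a negative change in both treatments. Of the 7 other Sox4 probe sets, 4 had a negative change in controls and 7 in embBE mice. On the mean of the probe sets the control changes fell short, at -0.28 for Sox4 and -0.61 for Sox11, while those in embBE mice stayed called (-0.46 and -0.82).

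The dLGN values of both genes had the same direction without passing. Sox4 there read 12.26 and 12.61 in P0 controls and 11.57, 11.63 and 11.84 in P4 controls (-0.75 ± 0.18, adjusted p = 0.113), and 12.36, 12.70, 12.75 and 12.31 and 11.96, 11.80 and 12.09 in embBE mice (-0.58 ± 0.15, adjusted p = 0.0948). Sox11 read 13.05 and 13.09 and 12.15, 12.44 and 12.67 in controls (-0.65 ± 0.17, adjusted p = 0.15), and 13.22, 13.27, 13.36 and 13.11 and 12.45, 12.56 and 12.83 in embBE mice (-0.62 ± 0.14, adjusted p = 0.0588). For each gene all 6 P4 arrays of dLGN lay below all 6 P0 arrays.

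Satb1, a chromatin organizer with a CUT domain, rose in VB. Its arrays read 8.17, 7.998 and 8.37 in P0 and 8.85, 8.57 and 8.81 in P4 controls, a change of 0.56 ± 0.12 (adjusted p = 0.0217). In embBE mice they read 8.06, 8.15 and 7.98 and 8.76, 8.66 and 8.70, a change of 0.64 ± 0.12 (adjusted p = 0.0117). In dLGN, Satb1 read 8.13 and 8.13 and 8.45, 8.49 and 8.55 in controls and 7.77, 8.11, 7.64 and 7.98 and 8.29, 8.60 and 8.35 in embBE mice. The P4 arrays were above all P0 arrays in each nucleus, although neither dLGN change passed (0.36 ± 0.16, adjusted p = 0.474; 0.54 ± 0.13, adjusted p = 0.0781).

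Bcl11a fell in dLGN of embBE mice, from 11.57, 11.15, 10.80 and 11.30 at P0 to 9.85, 10.26 and 10.02 at P4, by 1.16 ± 0.18 on the log2 scale (2.24-fold, adjusted p = 0.0111). In control dLGN the change was -0.57 ± 0.21 (adjusted p = 0.369), and in VB it was -0.52 ± 0.22 in controls and -0.44 ± 0.22 in embBE mice (adjusted p = 0.217 and 0.34). The difference of the control and embBE changes in dLGN did not pass (-0.59 ± 0.28, limma, adjusted p = 0.9997). Prox1, a Prospero homeodomain protein, had P4 minus P0 differences of -1.01 ± 0.33 in control and -1.03 ± 0.33 in embBE VB that met a 1.5-fold change without an adjusted p under 0.05 (0.114 and 0.121). Its VB control arrays read 8.61, 8.28 and 7.08 at P0, with 39_5 the low one, and 7.10, 6.90 and 6.94 at P4. The other 2 Prox1 probe sets changed by -0.15 and -0.03 in control VB and by -0.44 and -0.38 in embBE VB. Ebf1 had P4 minus P0 differences of -1.18 in control VB, -0.63 in control dLGN and -0.84 in embBE dLGN, none of which passed.

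The promoters of Sox4, Sox11 and Bcl11a are shown as those of the members whose fall with age was called, for Bcl11a in embBE dLGN alone. Each holds the 250 bases before the RefSeq start (GRCm38.p6), at chr13:28953700-28953949 (minus strand), chr12:27342719-27342968 (minus strand) and chr11:24080445-24080694 (plus strand), with capitals as for the Zic promoters.
Sox4: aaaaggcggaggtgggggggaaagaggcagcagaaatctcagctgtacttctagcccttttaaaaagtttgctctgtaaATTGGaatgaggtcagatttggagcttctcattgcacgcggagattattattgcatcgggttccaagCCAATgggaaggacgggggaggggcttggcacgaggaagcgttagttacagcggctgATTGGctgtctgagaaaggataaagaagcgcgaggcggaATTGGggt
Sox11: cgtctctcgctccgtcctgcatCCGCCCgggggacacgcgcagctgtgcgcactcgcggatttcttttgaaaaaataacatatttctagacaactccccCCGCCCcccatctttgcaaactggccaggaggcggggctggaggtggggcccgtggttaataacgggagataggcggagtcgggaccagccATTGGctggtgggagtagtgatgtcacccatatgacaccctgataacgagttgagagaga
Bcl11a: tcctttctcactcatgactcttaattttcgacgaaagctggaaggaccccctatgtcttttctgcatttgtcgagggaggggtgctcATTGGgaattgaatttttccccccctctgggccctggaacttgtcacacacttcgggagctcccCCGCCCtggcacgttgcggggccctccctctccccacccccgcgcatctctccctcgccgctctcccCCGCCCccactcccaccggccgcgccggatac
Sox4 had 4 CCAAT boxes and no GC box in this window, and Sox11 and Bcl11a had 1 CCAAT box and 2 GC boxes each. None held TATAAA. The G and C share was 50.8% in Sox4, 58.0% in Sox11 and 62.0% in Bcl11a.

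In VB, 3 of the 38 members changed with age in controls and 3 in embBE mice, Satb1, Sox4 and Sox11 in both, against 3.78% and 3.42% of genes. In dLGN no member passed in controls, against 0.561% of genes, and 1 passed in embBE mice, against 1.02%. In control dLGN 8 members had an unadjusted limma p under 0.05, as did 1752 of the 18194 genes. All 6 arrays of one age lay on one side of the other age for 3 members in VB and 6 in dLGN (Meis2 and Satb1 higher, Bcl11a, Tshz2, Sox4 and Sox11 lower at P4), against 6.69% and 5.21% of genes. With the actin gap as a covariate the 7 calls were kept. Satb1 lost its call without VB control 24_2 (0.51) or 40_1 (0.53) and without VB embBE 39_4 (0.61) or 24_4 (0.62). Sox4 lost it without control 40_1 (-0.87) and without embBE 39_3, 39_4 or 36_2 (-0.92 to -0.87). Sox11 lost it without control 35_1, 35_2, 24_2 or 40_1 (-0.93 to -0.79) and without embBE 35_3, 39_3, 39_4 or 36_2 (-1.07 to -0.82), and Bcl11a in dLGN without embBE 24_4 (-1.07) or 40_3 (-1.15). Aqp4, a water channel gene of astrocytes, rose by 3.72 ± 0.41 in control VB over the same interval, as did Gja1 of astrocytes (1.19), Olig2 of the oligodendrocyte lineage (0.68) and P2ry12 of microglia (0.65), and whether cell composition took part in the changes of members was not tested.

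**Figure D3:**
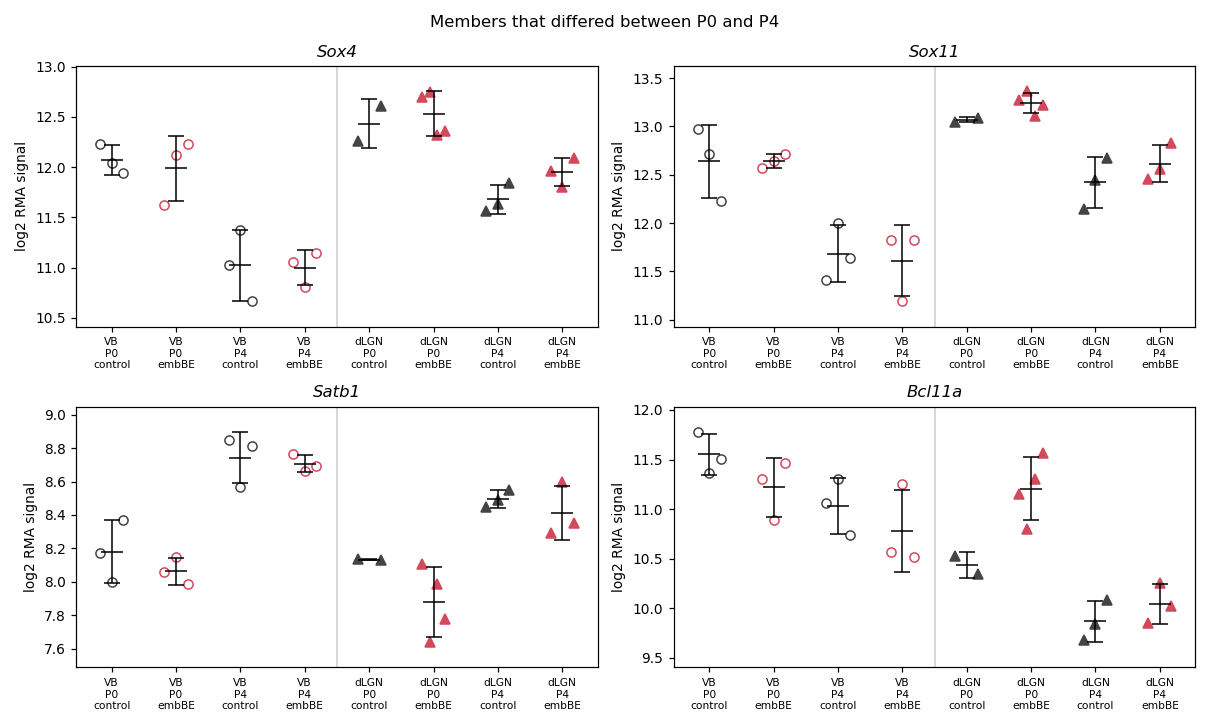
Log2 RMA signal (vertical axis) of Sox4, Sox11, Satb1 and Bcl11a on every array in the 8 groups (horizontal axis), with group mean and SD in black. Circles are VB and triangles dLGN arrays. P4 arrays of each nucleus lie below its P0 arrays for Sox4 and Sox11 and above them for Satb1.

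Enucleation was compared with control at the threshold the study used, a fold change above 1.5 with an unadjusted p under 0.05. No member had an adjusted p under 0.05 in any of these comparisons, the lowest being 0.679. In dLGN at P0, 4 members met the threshold, against 0.445% of genes. Bcl11a read 10.53 and 10.34 on the control arrays and 11.57, 11.15, 10.80 and 11.30 on the embBE arrays, so all 4 embBE arrays were higher, by 0.77 ± 0.20 (1.71-fold, limma, adjusted p = 0.851). The 6 other Bcl11a probe sets differed by 0.15 to 0.79. Tshz1 read 10.18 and 9.86 in controls and 11.34, 10.33, 10.42 and 11.04 in embBE mice, again without overlap, a difference of 0.76 ± 0.25 (limma, adjusted p = 0.851). Prox1 read 7.23 and 7.18 and 7.88, 8.41, 7.89 and 7.33, higher on every embBE array, by 0.67 ± 0.26 (limma, adjusted p = 0.851).

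Sox6, an HMG-box factor of interneurons and glial precursors, went the other way, at 7.65 and 8.66 in dLGN P0 controls and 7.89, 7.50, 7.26 and 7.47 in embBE mice, a difference of -0.62 ± 0.26 (limma, adjusted p = 0.851). Control array 35_1 lay within the embBE range, and without control 39_5 the difference was -0.12. The call was also lost without embBE 39_2 (-0.61), 39_3 (-0.54) or 39_4 (-0.60). Prox1 lost its call without embBE 39_2 (0.50) or either control array (0.65 and 0.70), and Tshz1 without embBE 35_3 (0.57) or control 39_5 (0.60), while Bcl11a kept its call in each case (0.65 to 0.90). On the mean of each gene's probe sets none of the 4 was called, with Bcl11a at 0.50, Tshz1 at 0.54, Prox1 at 0.43 and Sox6 at -0.33. The other Tshz1 probe set differed by 0.31 and those of Prox1 by 0.20 and 0.41. Arrays of the embBE and control groups did not overlap for 8 of the 38 members in dLGN at P0, against 9.98% of genes. Markers of other cells moved in the same comparison. The means of the 7 astrocyte and radial glia markers were 10.11 to 10.17 in controls and 9.55 to 9.94 in embBE dLGN, with 2 called (Fabp7 at -0.76 and Aldh1l1 at -0.75), and those of the 4 markers of dividing cells 7.63 to 7.95 and 7.07 to 7.44, with 1 called (Nusap1 at -0.60). Of the relay thalamus markers, Cck was called at -0.76. The 2 control arrays also differed from each other. The mean of the 14 prethalamic and GABAergic markers was 5.245 on 35_1 and 6.205 on 39_5, beside 5.213 to 5.603 in embBE dLGN. That of the 10 relay markers was 10.38 and 9.815, beside 9.649 to 10.62. The part of cell composition in the values of the members was not tested.

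In VB at P0 only Nfix, a nuclear factor I gene of glial and neuronal maturation, met the threshold on its brightest probe set, against 0.726% of genes. Nfix read 10.53, 9.50 and 10.17 in controls and 9.22, 9.36 and 9.52 in embBE mice, a difference of -0.70 ± 0.22 (limma, adjusted p = 0.679), and the groups overlapped. Its highest value was on array 35_1, which had the widest actin gap of all 24 arrays. Without 35_1 the difference was -0.47 and with the gap as a covariate -0.37, and neither met the threshold, nor did the mean of its 5 probe sets at -0.33. Over the set, 9 of 38 differences in VB at P0 were positive, with a median of -0.21 beside -0.03 over all genes. In that comparison 3 members had no overlap between groups, against 12% of genes.

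At P4 no member met the threshold in VB (0 at an unadjusted limma p under 0.05; 0.159% of genes called) or in dLGN (also 0; 0.198% called). The median absolute difference of the 38 members was 0.14 in both nuclei at P4, beside 0.25 in VB and 0.17 in dLGN at P0. Over all genes it was 0.13 in VB and 0.09 in dLGN at P4, and 0.13 in VB and 0.15 in dLGN at P0. Groups had no overlap for 0 members in VB and 1 in dLGN at P4, against 12.2% and 4.85% of genes. In dLGN at P4, 31 of 38 differences were positive, with a median of 0.09 beside 0.005 over all genes.

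**Figure D4:**
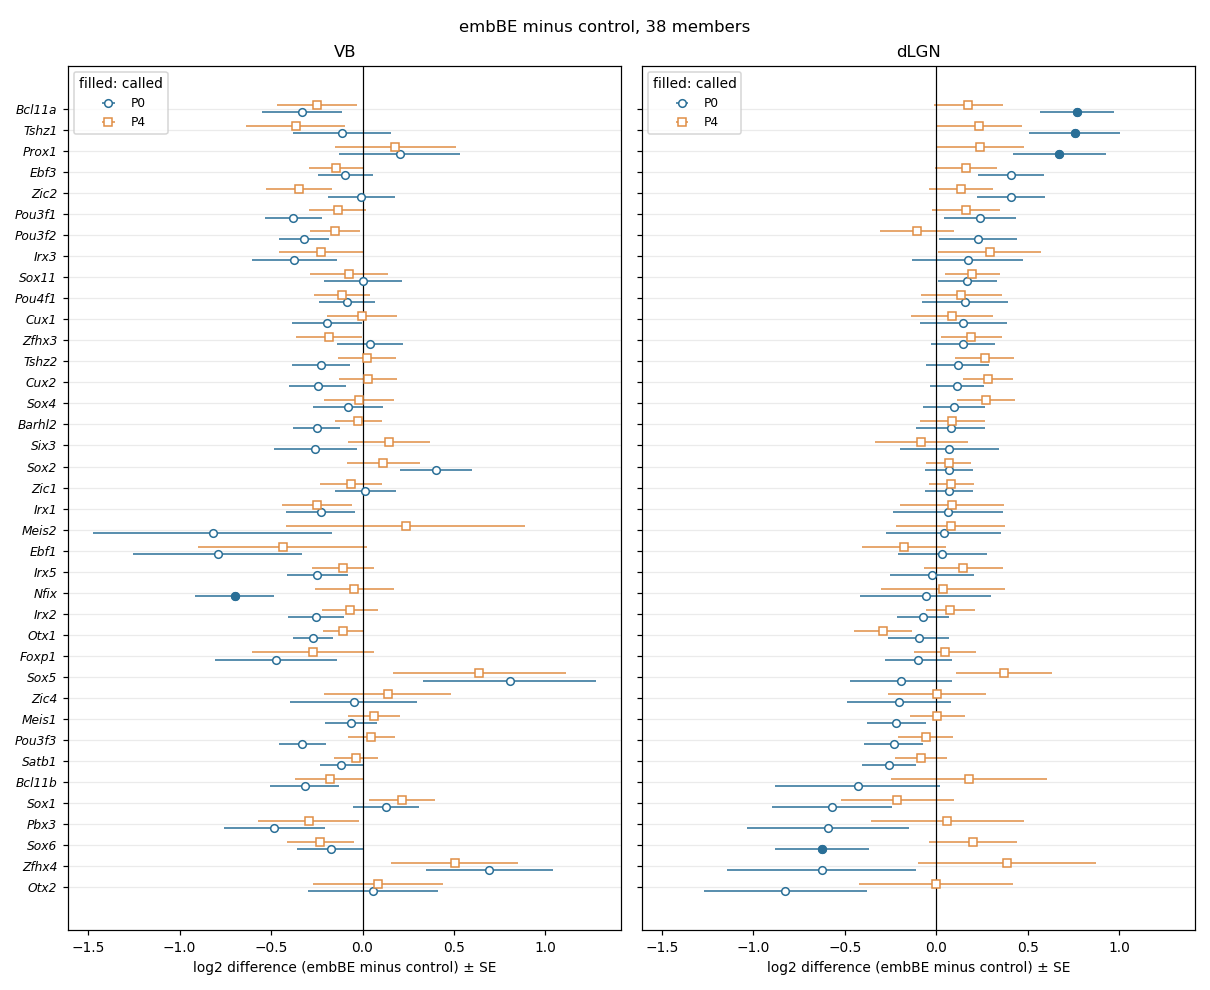
embBE minus control difference of the 38 members on the log2 scale (horizontal axis, with SE) in VB (left) and dLGN (right), at P0 (blue circles) and P4 (orange squares). Filled symbols met the study's threshold, which only Nfix in VB at P0 and Bcl11a, Tshz1, Prox1 and Sox6 in dLGN at P0 did.

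Whether the nuclei responded differently was tested directly. At P0 the embBE effect in VB minus that in dLGN met the threshold for 3 members, against 2.54% of genes. For Bcl11a it was -1.10 ± 0.32 (limma, adjusted p = 0.551), from an effect of -0.33 ± 0.22 in VB and the increase in dLGN. This held without each array in turn (-1.23 to -0.93). For Tshz1 it was -0.86 ± 0.40 (limma, adjusted p = 0.551), with an effect in VB of -0.11 ± 0.27. It was lost without dLGN 39_4, 35_3 or 39_5 or VB 35_3, 39_3, 35_1 or 39_5 (-0.77 to -0.67), and the other Tshz1 probe set gave -0.05. For Pou3f1, a POU factor of neuronal and glial precursors, it was -0.61 ± 0.26 (limma, adjusted p = 0.551), with effects of -0.38 ± 0.16 in VB and 0.24 ± 0.20 in dLGN, neither of which met the threshold. On the mean of the probe sets Bcl11a kept its call at -0.64, and Tshz1 at -0.46 and Pou3f1 at -0.21 did not. In this contrast all 4 markers of dividing cells also met the threshold, the other way (Nusap1 at 1.34, Cdk1 at 1.07, Mki67 at 0.85 and Top2a at 0.77). Their mean was 7.18 to 7.85 in control and 7.83 to 8.18 in embBE VB at P0. The glial gene Fabp7 was called at 0.997, Sox10 of the oligodendrocyte lineage at -0.75, Pax3 of the midbrain list at -0.67 and Cck at 0.93, and the part of such cells in the members' values was not tested.

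Pou3f1 read 7.38, 7.07 and 7.76 in control and 6.93, 7.02 and 7.11 in embBE VB at P0, and 6.89 and 7.19 and 7.30, 7.31, 7.60 and 6.90 in dLGN. Its interaction was lost without dLGN 39_3 or 35_1 or VB 35_3 or 39_5 (-0.57 to -0.43), and its other probe set gave 0.18. At P4 the difference between nuclei met the threshold for 0 members, against 0.478% of genes. Between the ages, the embBE effect changed past it for 0 members in VB, against 0.346%, and for Sox6 in dLGN, against 0.418%, at 0.83 ± 0.35 (limma, adjusted p = 0.9997). Sox6 in dLGN at P4 read 7.89, 7.89 and 8.23 in controls and 8.11, 8.46 and 8.04 in embBE mice, and on the mean of its probe sets the value was 0.44, without a call. The Sox6 value was 0.32 without P0 control 39_5 and 0.70 to 0.82 without P0 embBE 39_2, 39_3 or 39_4, P4 embBE 36_2 or P4 control 24_2 or 36_3, each time without a call.

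Control array 39_5 of VB at P0 stood apart in GABAergic markers. Gad1, which makes the GABA-synthesizing enzyme, read 4.79, 4.33 and 9.97 on VB P0 control arrays 35_1, 35_2 and 39_5, and Dlx1, a prethalamic factor, read 4.53, 4.39 and 6.81. The 9 other VB arrays read 4.20 to 7.39 for Gad1 and 4.13 to 4.60 for Dlx1. The dLGN P0 control array with the same label, 39_5, had Gad1 at 9.51, Dlx1 at 5.71 and Lhx1 at 7.60, and the other dLGN arrays had Gad1 between 6.01 and 8.996. Over the 14 measured genes of the prethalamic and GABAergic list, the mean signal was 6.28 on VB 39_5 and 6.21 on dLGN 39_5. It was 4.90 to 5.28 on the other VB and 5.21 to 5.68 on the other dLGN arrays. Slc32a1, the vesicular GABA transporter gene, was at 6.66 on VB 39_5, within the 6.30 to 6.72 of VB.

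Meis2, a TALE factor of the striatum and prethalamus among other places, moved with these markers. In VB it read 5.24, 5.36 and 8.54 in P0 controls, where 39_5 was the high array, 5.42, 5.36 and 5.90 in P0 embBE, 5.72, 6.01 and 6.23 in P4 controls and 5.96, 5.85 and 6.86 in P4 embBE mice, with 40_3 the highest there. Array 40_3 also had the highest Gad1 of the VB P4 arrays (7.39) and Isl1 at 6.81. In dLGN Meis2 read 7.06 and 6.16, 7.17, 6.08, 6.78 and 6.58, 7.50, 7.55 and 7.85 and 7.26, 8.08 and 7.80, so array 39_5 was not high there. At P4 every dLGN array lay above every VB array, with VB minus dLGN differences of -1.65 ± 0.56 in controls and -1.49 ± 0.56 in embBE mice (adjusted p = 0.148 and 0.0871), and neither passed. It was higher at P4 than at P0 on every dLGN array, by 1.02 ± 0.33 in controls and 1.06 ± 0.28 in embBE mice (adjusted p = 0.272 and 0.102).

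Other members were high on the dLGN array 39_5. Bcl11b, a zinc finger factor of corticofugal and striatal neurons, read 7.41 and 8.41 on dLGN P0 controls 35_1 and 39_5, Sox6 7.65 and 8.66, and Sox1, a marker of neural progenitors and some GABAergic neurons, 5.49 and 6.92. Sox1 on the other 23 arrays lay between 5.28 and 6.42. Bcl11b reached a like level on dLGN P0 embBE 35_3 (8.19) and exceeded it on P4 embBE 36_2 (8.64). The part of GABAergic cells in the values of Meis2, Bcl11b, Sox1, Sox6 and Pbx3 was not tested.

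**Figure D5:**
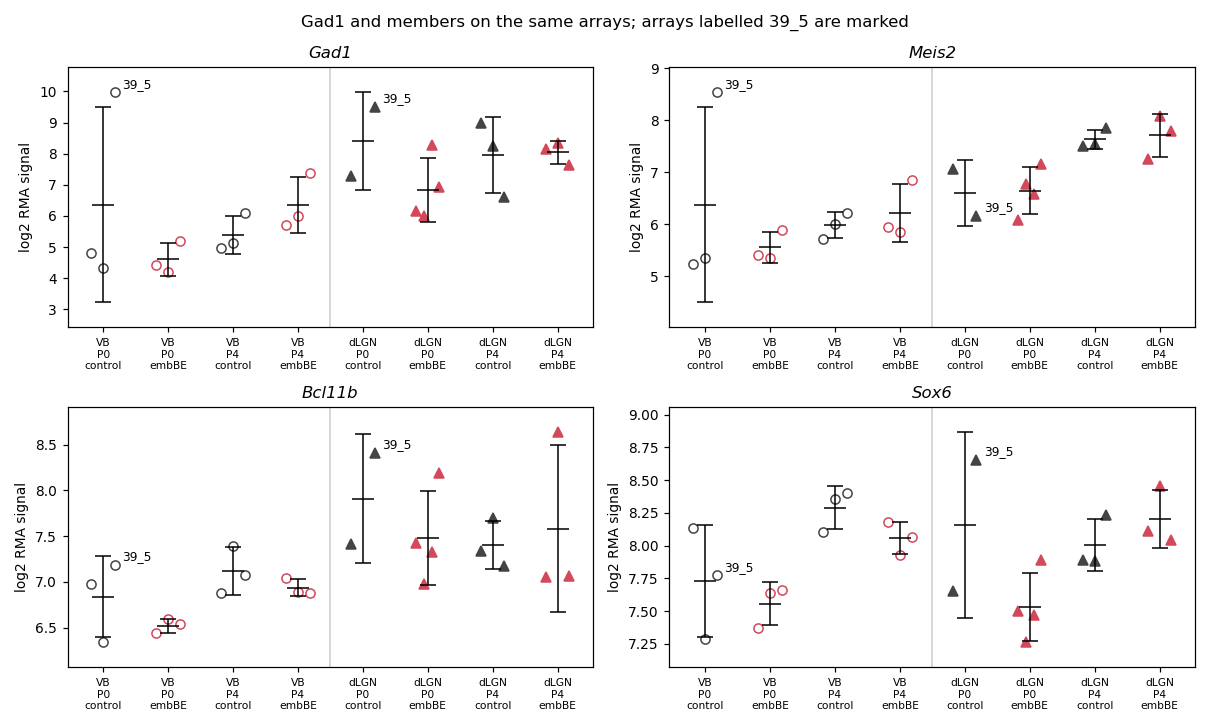
Log2 RMA signal (vertical axis) of Gad1 and of Meis2, Bcl11b and Sox6 on every array in the 8 groups (horizontal axis), with group mean and SD in black and the arrays labelled 39_5 marked. VB P0 control 39_5 is the highest VB array for Gad1 (9.97) and Meis2 (8.54). The dLGN array 39_5 is the highest of its nucleus for Gad1 and Sox6 but not for Meis2.

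Among the territory markers, Irx3 and Irx5, neighbouring Iroquois genes, had the same direction between nuclei. Irx3 read 6.96, 7.38 and 6.90 in VB and 7.61, 8.42 and 7.51 in dLGN of P4 embBE mice, -0.76 ± 0.28 (adjusted p = 0.0801), and 7.10, 7.73 and 7.10 and 7.31, 7.56 and 7.79 in P4 controls, -0.24 ± 0.28 (adjusted p = 0.727). Irx5 differed by -0.43 ± 0.20 in P4 embBE mice (adjusted p = 0.142) and -0.17 ± 0.20 in P4 controls (adjusted p = 0.733). Irx1 and Irx2, in another Iroquois cluster, had group means within 0.492 and 0.295 of each other over the 8 groups. Otx2, a factor of the midbrain and diencephalon, read 6.14, 6.33, 5.68 and 7.24 in P0 and 7.86, 7.26 and 7.40 in P4 embBE dLGN, 1.16 ± 0.39 (adjusted p = 0.224). The lowest arrays there, 35_3 and 39_3, had the narrowest spread of signals of that group (SD over all probe sets 2.22 and 2.16). Six3, Otx1 and Barhl2 moved by 0.52, 0.50 and 0.33 between their highest and lowest group means.

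Zfhx4 was low on arrays with a narrow spread of signals. This gene of a large zinc finger homeodomain protein read 9.55, 10.47 and 10.03 in VB P0 controls, 10.69, 9.09 and 10.63 in VB P4 controls, 8.44, 10.09, 8.79 and 10.24 in dLGN P0 embBE and 10.03, 9.62 and 8.57 in dLGN P4 controls. The low arrays were VB 35_1 and 36_3, dLGN P0 embBE 35_3 and 39_3 and dLGN P4 control 40_1, the narrowest in spread of their groups (SD over all probe sets 2.16 to 2.26). The P0 embBE difference of 1.32 ± 0.43 between nuclei did not pass (adjusted p = 0.0632). Sox5, an HMG-box factor of corticofugal neurons, read 6.83, 8.40 and 7.04 in VB and 8.67 and 8.73 in dLGN P0 controls, -1.27 ± 0.47 (adjusted p = 0.299). What sets these arrays apart was not tested.

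The remaining members had no call on their brightest probe set in any comparison. Group means lay within 0.355 for Cux2, 0.391 for Pou3f3, 0.515 for Pou3f2 and 0.57 for Zfhx3 over the 8 groups, and within 0.69 for Cux1, 0.79 for Foxp1, 0.80 for Pou4f1 and 0.87 for Meis1. Pou4f1, the habenular POU factor, was between 5.85 and 6.63 on VB and between 6.04 and 7.34 on dLGN arrays, with dLGN P0 embBE 39_3 the highest. Ebf3, a relative of Ebf1, was between 4.40 and 5.31 on all arrays. Some dimmer probe sets of these members were called. For Cux1 that was the case between nuclei in embBE mice at P0 (-0.86 and -0.81) and P4 (-0.72), and for enucleation in VB at P0 (-0.59) and its difference between nuclei (-0.98). For Foxp1 it was between nuclei in P4 embBE mice (-0.60), and for Zfhx3 with age in embBE VB (-0.80) and embBE dLGN (-0.51) and for the change of the embBE effect with age in VB (-0.66). Dimmer probe sets of Sox5 (-1.39) and Zfhx4 (0.85) were called between nuclei in P4 embBE mice, and those of Sox5 (1.13), Zfhx4 (0.62) and Meis2 (-0.82) for enucleation in VB at P0. Zfhx4 was also called for the difference of that effect between nuclei (0.66), and Meis2 for its change with age in VB (1.19) and dLGN (-0.71). Members with calls elsewhere had further calls on dimmer probe sets, not all of which are named here. Among them were Sox4 and Sox11 for enucleation in VB at P0, and Sox6 with age in VB of both treatments. No detection calls were used, so whether such low signals rise above background is not known.

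Outside the set, 36 measured regional factors of the diencephalon were read as a list. In P0 controls 1 was higher and 5 lower in VB, against 1.56% of genes, led by Neurog2, a proneural factor, at -2.68 ± 0.24 (limma, adjusted p = 3.41e-06). In P4 controls 2 were higher and 4 lower, and in embBE mice 3 were higher and 4 lower at P0 and 2 higher and 5 lower at P4. Of all genes 3.21%, 7.46% and 8.44% were called in these comparisons. Rorb (1.59 ± 0.30) and Lhx2, a LIM homeodomain factor (-1.29 ± 0.31), were among those of P4 controls. With age 1 rose in control VB, Nkx2-2 at 0.93 ± 0.15, against 3.78% of genes called. In embBE VB Nkx2-2 rose by 0.90 ± 0.15 and Gbx2 had a change of -1.44 ± 0.32, and in embBE dLGN Neurog2 had one of -1.61 ± 0.21. Of all genes 3.42% and 1.02% were called there. At the study's threshold enucleation changed 1 of the 36, against 0.726% of genes in that comparison. It was Lhx1 in VB at P0 (-0.99 ± 0.40, limma, adjusted p = 0.679), on which control 39_5 was the high array. Rorb, also in this list, was not called on its brightest probe set. In VB at P0 that probe set read 8.65, 8.27 and 8.20 in controls and 8.76, 8.83 and 8.87 in embBE mice, without overlap. The study itself reported Rorb as upregulated by enucleation at P0, by array and by in situ hybridization. That is also the direction of this probe set. The study does not state which probe set its array value came from, so the sizes cannot be compared. Other Rorb probe sets were not examined here.

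Family relatives of the members (28 measured) gave 1 call in P0 controls (Ebf4 at -0.50 ± 0.13) and 2 in P4 controls, Ebf2 at -0.92 ± 0.13 and Sox8 at 0.69 ± 0.14. In embBE mice 2 were higher and 4 lower in VB at P0, and 1 higher and 5 lower at P4. With age 1 rose in control VB (Sox8 at 0.85 ± 0.09), 2 in embBE VB and 1 in embBE dLGN, and enucleation changed none in either nucleus or age at the study's threshold. For these relatives and for the marker lists below, the shares of all genes called are those given above with the members. Marker lists of habenula, choroid plexus, cortex and hippocampus, pretectum and midbrain, oligodendrocytes, microglia, vessels and meninges, and dividing cells had at most 2 calls each in any nuclear comparison. Astrocyte and radial glia markers had 4 in P0 embBE mice, with Aqp4 at -2.82 ± 0.35 and Fabp7, Gja1 and Slc1a3 higher in VB. For enucleation, these lists gave 1 call in VB at P0 (Nusap1 of dividing cells at 0.74), 1 in VB at P4 (Tac1 of the habenula list at -0.72) and 2 in dLGN at P4 (Dcn and Col1a2 of the vessel and meninges list at 1.07 and 1.02), beside those of dLGN at P0 given with the members.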

How the data were processed

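Expression was measured on 24 Affymetrix mouse arrays, 1 per pooled sample. The values deposited by the authors are log2 signals after RMA (its version is not given in the sources used here), made per the methods from RNA of microdissected nuclei after amplification. Probe intensities and detection calls were not used here, and the number of arrays limits the precision. All 45101 probe sets (64 array controls) were read as deposited. Of these, 34958 had 1 gene symbol in the platform annotation (34754 updated through the Entrez number), 932 had several and 9211 had none listed, which left 18194 genes, each read from its brightest probe set.

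Differences were fitted with limma 3.58.1 (lmFit and eBayes) in R 4.3.3 over all genes, with Benjamini-Hochberg adjustment over the 18194. Nuclei were compared over the 24 arrays with the label pair as a random block (duplicateCorrelation, correlation -0.02), ages and treatments over the 12 arrays of a nucleus. Nuclei and ages were called at an adjusted p under 0.05, and embBE effects and their differences at the study's threshold (fold change over 1.5, unadjusted p under 0.05). There were 17 comparisons. The fits were tested on simulated data. Figures used matplotlib 3.10.9 in Python 3.11.15.

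The members, the lists of markers, family relatives and regional factors, and the tests were chosen with earlier results of these data known. Members called in a comparison are given on every array, and from each other list at most 4 called genes are named. Alternatives were the mean of a gene's probe sets, the dimmest genes left out (12129 kept), fits restricted to the arrays of each contrast, cyclic loess, the methods' t-test, replicate blocks and each array left out. The actin gap as a covariate and a fit without VB controls 35_1 and 36_3 were added after seeing the data. Promoter sequences are from RefSeq (GRCm38.p6), whose table matched 30 of the 38 members. Etv1 was not analysed here.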

Additional observations from a re-analysis of the deposited data

Results flagged for a closer look

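At P0, 3 members met the study's threshold for a difference in the embBE effect between nuclei (limma contrast), against 2.54% of genes. Bcl11a had an effect in VB minus dLGN of -1.10 ± 0.32 (SE; adjusted p = 0.551), Tshz1 of -0.86 ± 0.40 (adjusted p = 0.551) and Pou3f1 of -0.61 ± 0.26 (adjusted p = 0.551) on the log2 scale. In dLGN, Sox6 alone met it for a change of the embBE effect between ages, against 0.418% of genes. The change was 0.83 ± 0.35 at P4 minus P0 (limma, adjusted p = 0.9997). None passes adjustment over the 18194 genes. On the mean of the probe sets Tshz1 (-0.46), Pou3f1 (-0.21) and Sox6 (0.44) lost the call. The other Pou3f1 probe set gave 0.18. Of the 38 members in the dLGN P0 embBE group, the group with 4 arrays, none had a single array far from the others by Dixon's test.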

How the results depend on the processing

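Counts are members called of 38. No alternative reversed the sign of a called member, and 9 of the 38 calls were kept in every fit that left out an array. The mean of each gene's probe sets left 0 embBE calls in dLGN at P0 and 0 for its change with age there. Leaving out the dimmest genes (12129 kept) gave 10 in the P0 embBE nuclear comparison and 2 for age in dLGN embBE, and cyclic loess gave 11 and 2. In fits restricted to the arrays of each contrast, the nuclear counts were 0 in P0 controls and 16 in P4 embBE, those for age 0 in VB controls and 9 in VB embBE, and that of embBE in VB at P0 2. The difference of embBE effects between nuclei then had 1 call at P0 and 1 at P4. The methods' t-test gave 0, 0, 0 and 2 for the nuclei (P0 control, P4 control, P0 embBE, P4 embBE), 0 for age in VB controls, 1 in VB embBE and 0 in dLGN embBE, and 0 and 1 for embBE in VB and dLGN at P0. With the actin gap as a covariate the nuclear counts were 6 (P0 control), 1 (P0 embBE) and 3 (P4 embBE), those for age 6 in VB controls, 7 in VB embBE and 6 in dLGN embBE, that of embBE in VB at P0 0, and that of its change with age in dLGN 3. Without VB controls 35_1 and 36_3, P0 controls had 1 nuclear call and VB at P0 had 0 embBE calls. Among the alternatives, calls over all genes were counted for the t-test alone. The other counts here and below therefore cannot be set against a share of genes. The causes were not tested.

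Leaving out each array gave 0 to 3 nuclear calls in P0 controls, 3 to 7 in P4 controls, 1 to 14 in P0 embBE (14 without dLGN 39_4, 1 without VB 39_3) and 3 to 6 in P4 embBE mice. Age had 0 to 4 calls in VB controls, 0 to 3 in VB embBE, 0 in dLGN controls and 0 to 2 in dLGN embBE. The embBE counts were 0 to 5 in VB at P0 (5 without control 35_2, 0 without control 35_1), 1 to 5 in dLGN at P0 and 0 at P4 in both nuclei. The differences of embBE effects had 1 to 8 calls between nuclei at P0, 0 to 2 at P4, and 0 to 2 between ages in each nucleus. The change of the nuclear difference with age had 0. Groups with 1 array left were assumed to vary like the others, and the block correlation was that of all arrays.

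Deviations of same-numbered arrays from their group means correlated at -0.55 to 0.76, over 0.1 in 6 of 17 pairs. With groups this small, these values cannot show whether the label numbers pair the samples. In the nuclear fit the label pair entered as a random block, and the main embBE fits within a nucleus had no block. With no replicate block, nuclear counts were 3, 6, 6 and 9. With the first label number as a replicate block, embBE had 3 calls in VB at P0 and 3 in dLGN at P0, and 0 at P4 in both.

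With 2 control arrays, dLGN at P0 had the least precision. Values are signals of 1 probe set a gene, and 16 of the 38 calls were lost on the mean of its probe sets.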
